A study of Homo sapiens with 8 samples.

Results

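The binding of CTCF was followed at the loci of 10 genes of the NF-κB pathway in HT1080 cells, a human fibrosarcoma line labelled as ras +. The genes were NFKB1, NFKB2 and RELB (subunits of the factor), NFKBIA and TNFAIP3 (inhibitors), and IL6, CXCL8, CCL2, ICAM1 and BIRC3 (targets). A locus was the gene body in hg19 coordinates with 100 kb on each side, and every CTCF peak that touched it was a member. The loci held 69 of the 47470 CTCF peaks of control cells and 50 of the 29558 peaks of treated cells. Treated cells had received 3 µM CBL0137, a curaxin, for 6 h, and control cells had not. The controls are labelled only as such, and a vehicle is not named in their labels. CTCF ChIP and input DNA were sequenced in 2 biological replicates each per condition, 8 libraries in all, and the authors pooled the replicates of a condition into a single peak list. The lists hold no value per replicate and no read depth, so no spread between replicates could be given and no test was made. The 95% Wilson intervals given here cover counting error only, and neighbouring peaks are not independent.

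NF-κB is a family of dimeric transcription factors of the Rel type. In resting cells IκB proteins, of which NFKBIA is the best known, hold the dimers in the cytoplasm, and the IKK kinases release them in response to cytokines and other stress. The factor switches on inflammatory, adhesion and survival genes and also the genes of its own inhibitors, which closes a feedback loop. CTCF is a zinc finger protein that recognises a long GC-rich motif and, with cohesin, anchors chromatin loops and borders of domains. Curaxins bind DNA and were described earlier as inhibitors of NF-κB activity.

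A control peak was termed kept if a peak of the treated list overlapped it by at least 1 bp, and lost otherwise. A treated peak without any overlapping control peak was termed arisen. A lost peak is one that did not reach the authors' list of treated cells, and the lists do not tell a weaker site from an empty one. The percentile of a peak is that of its fold enrichment within its own list. The treated list is shorter and lacks mainly weak control peaks, so the percentile of a kept peak tends to be lower there without any difference at the site. Over all 27003 pairs of shared peaks the median difference of treated minus control was -9.26 points. This rather than 0 is the value to set the median over the member peaks against. It is no baseline for a single peak or locus. A peak near the top of the control list has little room to rise, and one near the bottom little room to fall. Differences were not compared with those of pairs of like control rank.

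The DNA under the peaks was read from the hg19 reference to show what CTCF was bound to. The core of the CTCF consensus, 12 bases long and searched on both strands with at most 1 mismatch, matched within 400 bp around the centre of 40 of the 69 control peaks (58.0%, interval 46.2% to 68.9%). Over all control peaks the share was 49.0%. In windows 10 kb away from the member peaks 3 matched (4.35%), against 2.81% for all control peaks. The following stretches show the match in capitals with 20 bases on each side, 5′ to 3′ on the strand of the match. They are the matches of the control peaks nearest the starts of 4 genes, of the strongest lost peak at NFKB1, the only locus whose strongest lost peak had a match, and of the strongest kept peaks of the 3 cytokine genes.
NFKB1, kept, 51.4 kb before the start, chr4:103371082-103371133, plus strand: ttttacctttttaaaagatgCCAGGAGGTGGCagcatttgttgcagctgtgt
NFKB1, lost, 124 kb after the start, chr4:103546910-103546961, minus strand: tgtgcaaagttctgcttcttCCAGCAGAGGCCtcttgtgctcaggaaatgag
NFKB2, kept, at the start, chr10:104153807-104153858, plus strand: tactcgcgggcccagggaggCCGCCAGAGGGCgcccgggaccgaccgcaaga
RELB, kept, 12.1 kb before the start, chr19:45492603-45492654, plus strand: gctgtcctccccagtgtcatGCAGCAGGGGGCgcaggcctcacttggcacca
TNFAIP3, kept, at the start, chr6:138188250-138188301, minus strand: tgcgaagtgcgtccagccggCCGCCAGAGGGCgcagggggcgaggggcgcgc
IL6, kept, 57.0 kb after the start, chr7:22822405-22822456, minus strand: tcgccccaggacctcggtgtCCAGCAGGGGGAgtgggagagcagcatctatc
CXCL8, kept, 86.7 kb before the start, chr4:74519530-74519581, minus strand: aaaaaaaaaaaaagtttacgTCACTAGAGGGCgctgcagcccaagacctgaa
CCL2, kept, 55.1 kb before the start, chr17:32527134-32527185, plus strand: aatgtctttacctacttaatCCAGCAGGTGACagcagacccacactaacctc

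Control peaks were centred within 1 kb of the start of 4 of the 10 genes. The next stretches come from 3 of these peaks, 5′ to 3′ on the strand of the gene. Each is the part of the peak that lies before the gene start and within the 300 bp around the peak centre. They were chosen to show the κB consensus, the 10-base site of NF-κB, at the start peaks of both inhibitors, and the DNA of a lost start peak, at IL6, which holds none. The start peak of NFKB2, whose CTCF match is printed above, was kept and holds no κB match in this part either. A κB match does lie within the 300 bp around its centre, outside this part. Capitals mark the 3 κB matches, in each of which the consensus reads on the strand opposite to the gene.
NFKBIA, kept, chr14:35873956-35874075, minus strand: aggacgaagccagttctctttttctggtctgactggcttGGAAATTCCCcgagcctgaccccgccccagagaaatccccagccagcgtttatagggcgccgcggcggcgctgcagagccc
TNFAIP3, kept, chr6:138188126-138188350, plus strand: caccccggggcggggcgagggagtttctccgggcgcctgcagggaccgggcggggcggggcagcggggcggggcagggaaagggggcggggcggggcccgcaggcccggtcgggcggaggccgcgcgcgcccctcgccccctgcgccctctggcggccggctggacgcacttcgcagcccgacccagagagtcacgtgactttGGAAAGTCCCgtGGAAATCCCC
IL6, lost, chr7:22765351-22765502, plus strand: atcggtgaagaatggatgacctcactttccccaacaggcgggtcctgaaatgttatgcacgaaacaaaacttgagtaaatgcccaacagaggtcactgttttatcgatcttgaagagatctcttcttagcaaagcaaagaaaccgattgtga

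Of the 69 control peaks at the 10 loci, 48 were kept and 21 were lost after treatment, a lost share of 30.4% (interval 20.8% to 42.1%), where 42.9% of all control peaks were lost. The member peaks differed from the average peak in strength and base composition, and control peaks elsewhere, weighted to the same deciles of fold enrichment, were lost in 36.8%. Weighted to the same GC content the share was 39.6%, and weighted to both in coarser classes 36.0%. Weighted to the chromosomes of the member peaks it was 37.9%. These weighted shares lie inside the interval of the member loci, and the unweighted 42.9% lies above it. The median locus lost 25% of its control peaks, while the windows of all 19254 protein-coding genes with a control peak had a median of 33.3% and quartiles of 20% and 50%. Of the 50 treated peaks, 2 had arisen (4.0%, interval 1.10% to 13.5%), where 8.07% of all treated peaks had. With an FDR of at most 1e-05 in both lists the relation turned round, with 11.9% (5 of 42) against 7.15%. With that limit on the treated list alone and the whole control list, the shares were 2.38% (1 of 42) and 2.30%. The 2 peaks that had arisen without an FDR limit both lay at ICAM1.

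The loci differed among themselves. NFKB1 lost 5 of 7 control peaks and TNFAIP3 5 of 8, whereas NFKBIA kept all 5 and ICAM1 all 6. Between them, IL6 lost 3 of 7, CXCL8 1 of 3, RELB 3 of 12, BIRC3 2 of 8, CCL2 1 of 5 and NFKB2 1 of 8. Of the 9 loci with at least 5 control peaks, 2 lost none, where 5.80% of the 14202 protein-coding windows of that kind did. Over 60% of the peaks were lost at 2 loci, against 9.49% of those windows. These counts of 2 each came to 1 with an FDR of at most 1e-05 in both lists, since NFKBIA then lost 2 peaks and TNFAIP3 1 of 4. With so few peaks a locus, the interval of each share is wide, from 35.9% to 91.8% at NFKB1 and from 0% to 43.4% at NFKBIA, so that even these extremes share part of their range.

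**Figure D1:**
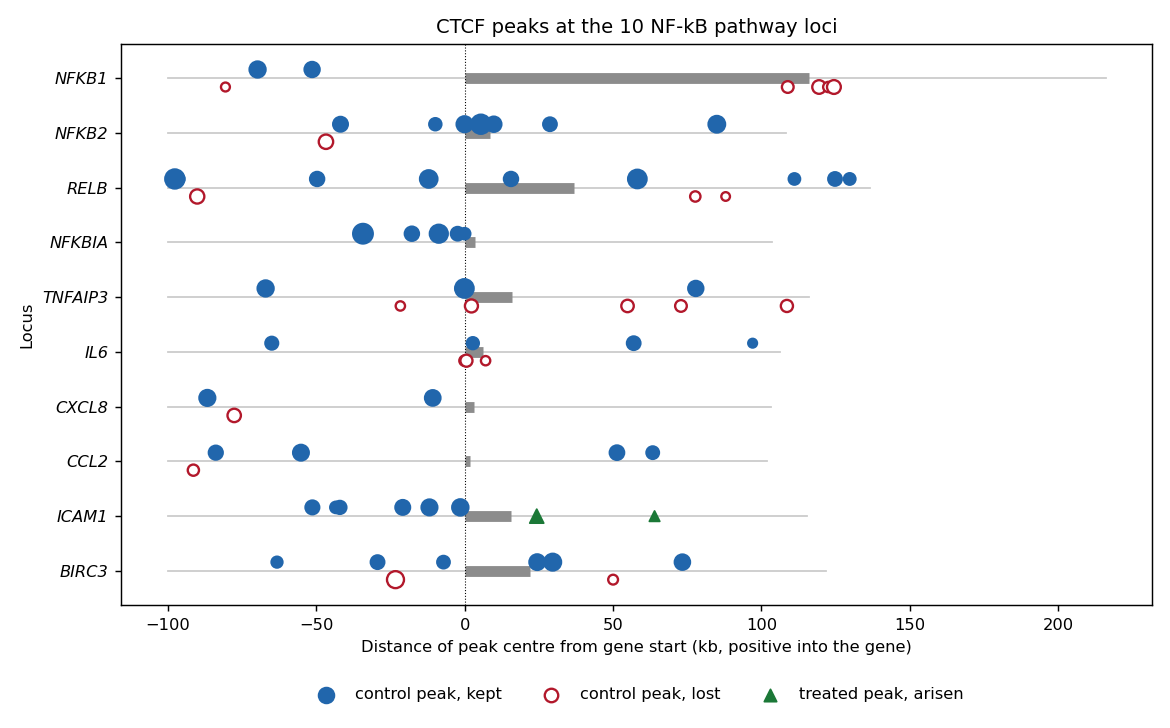
CTCF peaks along the 10 loci. The x axis is the distance of the peak centre from the gene start in kb, positive into the gene, the grey bars are gene bodies, and marker size grows with fold enrichment in the peak's own list. Filled circles are kept control peaks, open circles lost control peaks (drawn below the line) and triangles arisen peaks: 4 of the lost NFKB1 peaks lie at the far end of the gene, and the 2 arisen peaks lie beyond ICAM1.

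**Figure D2:**
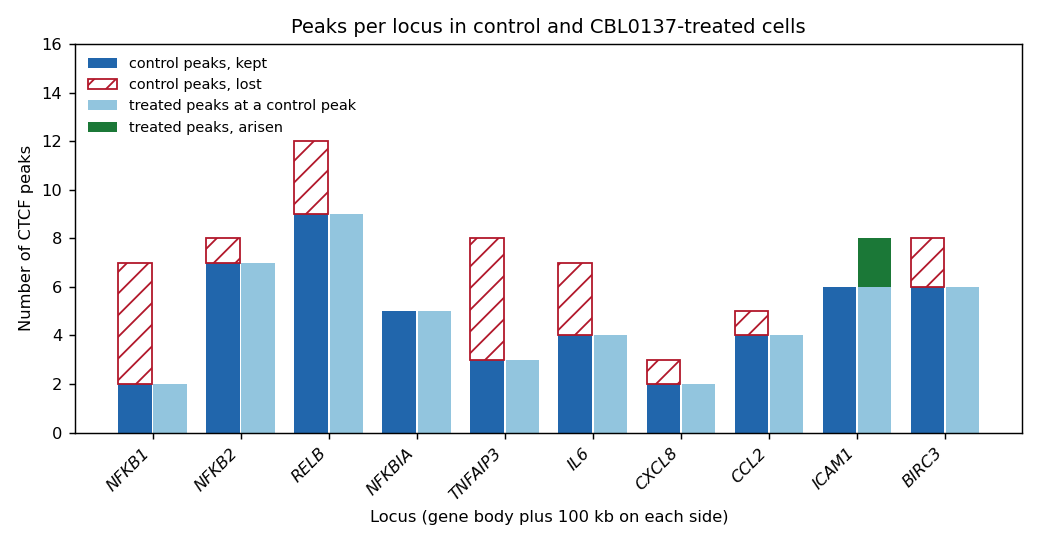
Number of CTCF peaks in each locus. For each gene the left bar divides the control peaks into kept and lost, and the right bar divides the treated peaks into those that overlap a control peak and those that had arisen. NFKBIA and ICAM1 show no lost part, while at NFKB1 and TNFAIP3 it is the larger part.

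NFKB1 (chr4:103422487-103538459, plus strand) encodes the precursor of the p50 subunit. It had 7 control peaks and 2 treated peaks. No control peak was centred between 51.4 kb before its start and 109 kb after it, so the promoter and most of the gene body were without a CTCF peak in either list. The pair of kept peaks stood upstream, at 69.8 kb and 51.4 kb before the start, and had control fold enrichments over input of 45.2 and 39.7. Their percentile ranks were 86.2 and 77.3 in the control list and 23.8 and 27.1 in the treated list. The lost peaks had lower fold enrichments, from 11.5 to 32.9. Of these, 4 formed a cluster between 109 kb and 124 kb after the start, around the 3′ end of the gene, and the other lay 80.6 kb before the start. The nearest treated peak to any of the cluster was 160 kb to 176 kb away, which is the greatest gap at any member locus. All 7 control peaks of NFKB1 had a consensus match, and 5 of the 7 lost member peaks with a match lay here. On chromosome 4, where NFKB1 lies, 52.0% of all control peaks were lost, and 44.9% were lost among peaks elsewhere of the same fold enrichment. The window has a GC content of 38.2%, and the part of chromosome and base composition in the count was not tested.

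NFKB2 (chr10:104153867-104162281, plus strand), which encodes the precursor of the p52 subunit of the alternative pathway, kept 7 of 8 peaks. Peaks elsewhere of the same fold enrichment were lost in 22.7%, and those of chromosome 10 in 42.9%. The peak at its start (chr10:104153601-104154100, centre 16 bp before the start) had a fold enrichment of 44.4 in control cells and of 35.1 in treated cells, at percentiles 85 and 66.3 of their lists. The strongest peak of the locus, 5.48 kb into the gene in a coding exon of NFKB2, had a control fold enrichment of 66.3 and stood at percentile 98.7, and at 80 after treatment. The lost peak lay 46.7 kb before the start within GBF1 and had a fold enrichment of 36.0, with a treated peak 4.50 kb away. The 7 kept peaks all held a lower percentile in the treated list than in the control list, and when ranked among the shared peaks alone 6 of the 7 did.

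RELB (chr19:45504719-45541450, plus strand), which encodes the partner of p52, had 12 control peaks, the most of the 10 loci, and lost 3 of them (25%, interval 8.89% to 53.2%). On chromosome 19 as a whole 21.1% were lost, and 38.8% among peaks elsewhere at equal fold enrichment. Nearest to its start was a kept peak 12.1 kb upstream in CLPTM1, which has a consensus match. It had a fold enrichment of 54.1 and a percentile of 94.5 in control cells, and a percentile of 30.1 in treated cells. The strongest kept peak, 97.6 kb before the start, had a fold enrichment of 66.0 and stayed near the top of its list, at percentiles 98.6 and 99.2. A peak 58.2 kb after the start in CLASRP stood at 97.6 and 99.8. The lost peaks had fold enrichments from 10.6 to 34.9, the strongest of them 90.1 kb before the start. Among the 9 kept peaks 6 held a higher percentile in the treated list and 3 a lower one, with a median difference of 2.26 points. At NFKB2 the median difference was -19.4 points.

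NFKBIA (chr14:35870285-35873955, minus strand) encodes IκBα, the inhibitor that NF-κB itself induces. All 5 of its control peaks overlapped a treated peak, although 42.2% of the control peaks of chromosome 14 were lost and 28.3% of peaks elsewhere at the same fold enrichment. Of these, 4 lay upstream of the gene, up to 34.2 kb from the start. The start peak (chr14:35873751-35874100, centre 29 bp inside the gene) had a fold enrichment of 20.6 in control cells and of 9.38 in treated cells, at percentiles 27.3 and 3.52. The peak 8.70 kb upstream stood at percentile 96.3 of the control list and 4.63 of the treated list, with fold enrichments of 57.9 and 10. The strongest peak, 34.2 kb upstream, stood at 99.2 and 32.2. Ranked among the shared peaks alone, these peaks differed by -89.9 and -69.3 points. Only the peak 17.8 kb upstream ranked higher in treated cells, at 76.5 against 66.1. It has the consensus without a mismatch. The peak 2.35 kb upstream, with 1 mismatch, stood at 56.9 in control cells and 13.6 in treated cells. The median difference over the 5 peaks was -43.4 points, and -26.0 among the shared peaks alone. The full retention rested on the overlap rule: where the overlap had to exceed 50% of the wider peak, or with an FDR of at most 1e-05 in both lists, 2 of the 5 were lost.

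TNFAIP3 (chr6:138188351-138204451, plus strand) encodes A20, a ubiquitin-editing enzyme that shuts down signalling to NF-κB. It lost 5 of 8 control peaks (62.5%, interval 30.6% to 86.3%), against 47.7% on chromosome 6 and 39.2% at equal fold enrichment. The start peak was kept. It lay at chr6:138188101-138188450, centred 75 bp before the start, with a fold enrichment of 61.6 in control cells and of 72.4 in treated cells, at percentiles 97.6 and 98.8. A weaker peak 2.30 kb into the gene, with a fold enrichment of 28.8, was lost, and the start peak was the treated peak nearest to it. The kept peaks ranged from 39.8 to 61.6 in fold enrichment and the lost peaks from 13 to 28.8, without overlap. Of the lost peaks, 4 had a control FDR above 1e-05, and with that limit on both lists only 1 of 4 remaining control peaks was lost.

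IL6 (chr7:22765503-22771621, plus strand) encodes interleukin 6. Its control fold enrichments lay between 11.1 and 31.0, with a median of 23.9 against 28.7 over all control peaks. Of the 7 control peaks 3 were lost (42.9%, interval 15.8% to 75%). The share was 43.5% on chromosome 7 and 62.8% among peaks elsewhere of the same fold enrichment, both inside this interval. Both peaks at the start of the gene record were lost, the one 52 bp before it with a fold enrichment of 16.5 and the one 623 bp after it with 24.2. The third lost peak lay 7.07 kb after the start, beyond the end of the gene, with a fold enrichment of 12.9. Between these, 2.77 kb after the start within an exon of IL6, a peak was kept with fold enrichments of 23.9 and 22.3 and percentiles of 36.6 and 36.3. This peak holds the consensus without a mismatch, and none of the 3 lost peaks had a match. The start of the MANE Select transcript, the reference transcript of the gene, lies 1316 bp after the start of the gene record, so only the lost peak of 24.2, 693 bp before it, is within 1 kb of that start. STEAP1B overlaps the region of both peaks. Where the overlap had to exceed 50% of the wider peak, 4 of 7 control peaks of the locus were lost. The peak added was that 97.0 kb after the start, 100 bp wide in control cells. With an FDR of at most 1e-05 in both lists 2 of 5 were lost.

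CXCL8 (chr4:74606236-74609433, plus strand), the gene of the neutrophil chemokine interleukin 8, had only 3 control peaks, all upstream, of which 1 was lost. On chromosome 4 52.0% were lost, and 20.3% at equal fold enrichment. The nearest, 10.7 kb before the start, was kept with fold enrichments of 41.7 and 19.4 and percentiles of 80.9 and 28.9. The strongest, 86.7 kb before it, was kept with 44.3 and 61.7 at percentiles 85 and 96.3. The lost peak between them, at 77.6 kb, had a fold enrichment of 30.7. With an FDR of at most 1e-05 in both lists 2 of the 3 were lost.

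CCL2 (chr17:32582293-32584227, plus strand) encodes a chemokine that attracts monocytes. No peak of either list was centred nearer to its start than 51.3 kb. It lost 1 of 5 control peaks, 91.4 kb before the start in ASIC2, with a fold enrichment of 20.4. The shares were 31.2% on chromosome 17 and 35.0% at equal fold enrichment. The peaks on the upstream side 55.1 kb and 83.8 kb from the start were kept at percentiles of 83.2 and 62.9 in control cells and of 87.9 and 76.8 in treated cells, and both have a consensus match. The downstream peaks, at 51.3 kb and 63.4 kb, had no match, and their percentiles were 69.3 and 43.2 in control cells and 9.71 and 10.2 in treated cells. At NFKB1 both kept peaks have a match, with percentiles of 86.2 and 77.3 in control cells and 23.8 and 27.1 in treated cells. A link between match and rank was not tested. Under the stricter overlap or FDR rule 2 control peaks of the locus were lost.

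ICAM1 (chr19:10381769-10397291, plus strand) encodes an adhesion molecule that leukocytes bind on endothelium and other cells. All 6 of its control peaks were kept, against a lost share of 21.1% on chromosome 19 and of 30% at equal fold enrichment, and none was lost with the stricter overlap rule or among the 5 that passed the stricter FDR. The kept peaks lay upstream of the gene. The nearest of them, 1.44 kb before the start, was also the strongest and has no consensus match. Its fold enrichments were 46.3 and 60.9, at percentiles of 87.6 and 95.9. The peak 43.4 kb upstream, where DNMT1 and S1PR2 overlap, stood at 28.6 in control cells and 82.7 in treated cells. Both arisen peaks lay downstream. At chr19:10405951-10406200, 24.3 kb after the start in a coding exon of ICAM5, a treated peak had a fold enrichment of 33.3 (percentile 62.7) and a consensus match with 1 mismatch, and the nearest control peak was 25.4 kb away. At chr19:10445701-10445850, 64.0 kb after the start in a coding exon of ICAM3, the fold enrichment was 16.8 (percentile 21.6). ICAM3 and ICAM5 encode related adhesion molecules.

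BIRC3 (chr11:102188215-102210134, plus strand) encodes an inhibitor of apoptosis that acts in TNF receptor signalling. It kept 6 of 8 control peaks, and 39.3% of the peaks of chromosome 11 and 33.3% at equal fold enrichment were lost. The peak nearest its start, 7.11 kb upstream, had fold enrichments of 26 and 43.0 and percentiles of 42.5 and 79.9. In control cells this peak was only 100 bp wide, with an FDR of 4.56e-04. It counted as lost where the overlap had to exceed 50% of the wider peak, and 3 of 8 were then lost. With an FDR of at most 1e-05 in both lists it dropped out, and 1 of 6 was lost. The strongest peak of the locus, 23.3 kb upstream, was lost despite a fold enrichment of 51.6 (percentile 92.7). It has no consensus match, and a treated peak lay 5.75 kb from it. The other lost peak, 50 kb after the start in BIRC2, was weak, with a fold enrichment of 14.7, and has a match. BIRC2, the neighbouring paralogue, has its start at the kept peak 29.7 kb after that of BIRC3, which had the highest fold enrichment of the kept peaks, 49.9.

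Over the 10 loci, lost peaks had been the weaker ones in control cells. Their median fold enrichment was 22.6 (range 10.6 to 51.6, n = 21), against 36.7 (range 11.1 to 69.7, n = 48) for kept peaks, and the ranges overlapped over most of their width. Over all control peaks the medians were 20.6 for lost and 34.9 for kept peaks. The median width was 200 bp for lost and 350 bp for kept member peaks, the same as over all control peaks. Median GC content over 500 bp was 45.4% in lost and 50.7% in kept member peaks, and 43.0% and 48.2% in all control peaks. From a lost peak the nearest treated peak was at a median distance of 10.6 kb, with a range of 1.75 kb to 176 kb.

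**Figure D3:**
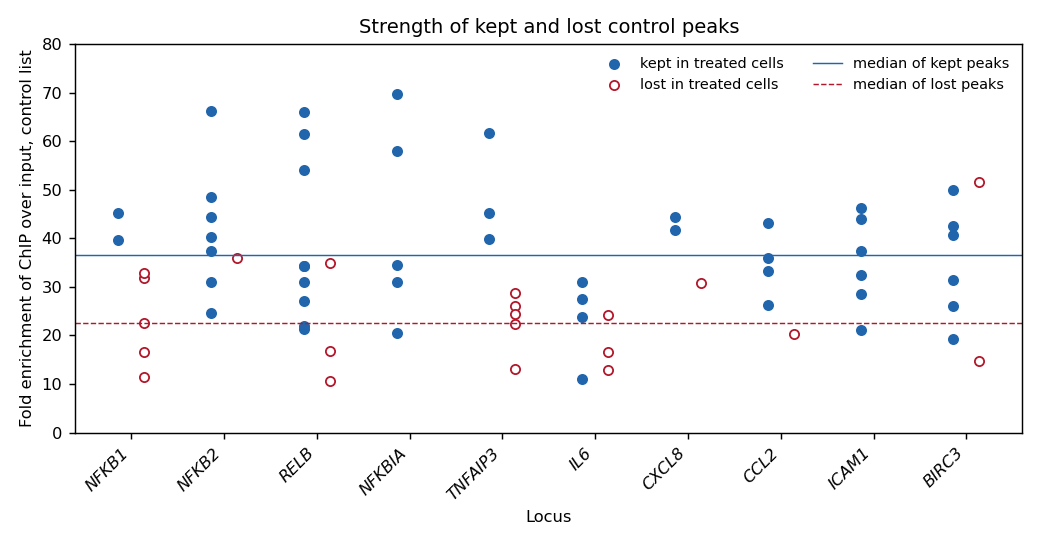
Fold enrichment over input in control cells of the member peaks of each locus, on the y axis. Filled circles are kept and open circles are lost peaks, each point is a peak of the list that pools both control replicates, and the solid and dashed lines are the medians of kept (36.7) and lost (22.6) peaks. At NFKB1, TNFAIP3, CXCL8 and CCL2 all kept peaks lie above all lost peaks, while the strongest peak of BIRC3 is a lost one.

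The consensus match was more frequent at kept peaks. A match was present at 33 of 48 kept peaks (68.8%) and at 7 of 21 lost peaks (33.3%), and over all control peaks at 62.1% and 31.5%. The lost peaks with a match comprised 5 at NFKB1, 1 at TNFAIP3 and 1 at BIRC3. By role of the peak, 5 of the 10 peaks nearest a start had a match, 7 of the 10 strongest kept peaks and 1 of the 8 strongest lost peaks, that of NFKB1 printed above. The 40 matches were divided between 21 on the plus and 19 on the minus strand of the genome.

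Fold enrichments of the lists were not divided by each other, because each depends on its own libraries, and the 48 kept peaks were compared by percentile rank within their lists instead. The median difference of treated minus control was -8.45 points (quartiles -27.2 and 11.9), against -9.26 (quartiles -28.8 and 6.37) over all pairs. A higher percentile in treated cells was held by 21 of the 48 (43.8%) and by 35.1% of all pairs. So that both ranks cover the same peaks, the pairs were also ranked among the shared peaks alone, a choice made after the peaks had been seen. This ranking centres the differences over all pairs by construction. The median difference was then 2.11 points (quartiles -16.1 and 22.2), against 0.722 (quartiles -17.9 and 18.7) over all pairs. On this scale 25 of the 48 member peaks ranked higher in treated cells (52.1%, all pairs 51.3%), 9 by over 30 points (18.8%, all pairs 14.4%), and 9 ranked lower by over 30 points (18.8%, all pairs 14.8%). The medians by locus ran from -48.4 points at NFKB1, with 2 peaks, and -26.0 at NFKBIA, with 5, to 18.6 at IL6, with 4, and 23.4 at BIRC3, with 6. The peak of ICAM1 43.4 kb upstream was higher by 70.3 points and that nearest the start of BIRC3 by 56.0. In control cells the former had ranked at 11.0 and the latter at 22.2. Neither these differences nor the medians by locus were set against pairs of like control rank. The treated peak was narrower at 22 member pairs (45.8%), equal at 19 (39.6%) and wider at 7 (14.6%). Over all pairs 62.4% were narrower, 22.7% equal and 15.0% wider. Peak borders lie on a grid of 50 bp.

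**Figure D4:**
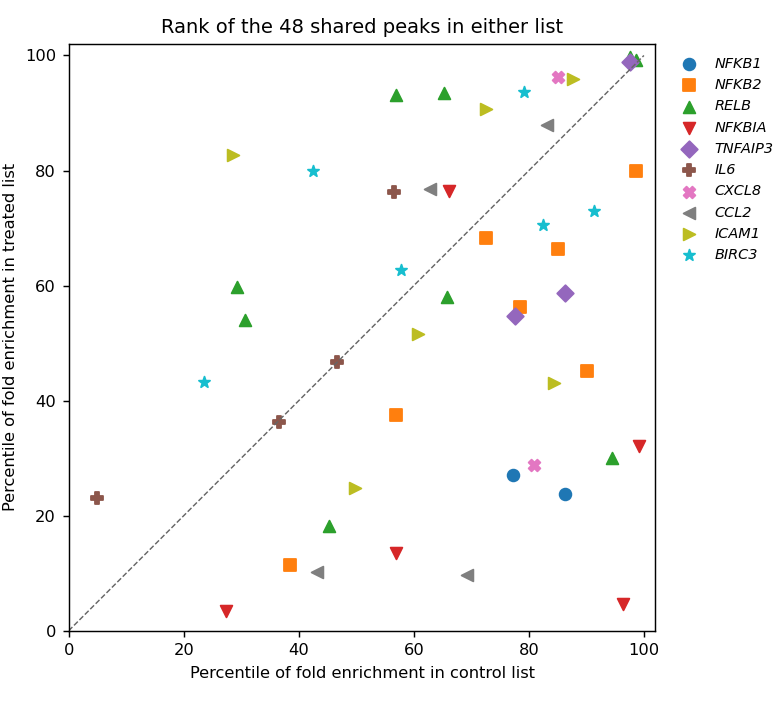
Percentile rank of fold enrichment of the 48 kept member peaks within the control list (x axis) and within the treated list (y axis), with a colour and marker for each locus. The dashed diagonal marks equal percentiles, below which most shared pairs of all peaks lie. The 2 NFKB1 peaks and 4 of the 5 NFKBIA peaks rank lower in the treated list, whereas 6 of the 9 RELB peaks and 4 of the 6 BIRC3 peaks rank higher.

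At gene starts, 5 control peaks were centred within 1 kb of 4 members (NFKB2, NFKBIA, TNFAIP3 and IL6), and 2 were lost, both at IL6. Over all protein-coding genes 28.0% of the 3205 such peaks were lost. With the start of the MANE Select transcript, 3 peaks at 3 genes qualified and 1 was lost, where 28.1% of 3273 were. The other 6 members had no peak within 1 kb of the start of the gene record. Of all member peaks upstream of the starts, 8 of 37 were lost (21.6%), and of those downstream 13 of 32 (40.6%). Over the windows of all protein-coding genes, with a peak counted in every window that holds it, the shares were 33.5% and 35.4%. The member counts rested on few loci: without NFKB1 they were 7 of 34 upstream (20.6%) and 9 of 28 downstream (32.1%), and 10 of the 11 control peaks of NFKBIA and ICAM1, all kept, lay upstream. Within 25 kb of the start 6 of 24 were lost (25%, all windows 32.7%), and farther away 15 of 45 (33.3%, all windows 35.2%).

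The κB consensus, chosen for a search after the peaks had been seen, was present from 250 bp before to 50 bp after the MANE Select start in 7 of the 10 members (NFKB1, NFKB2, RELB, NFKBIA, TNFAIP3, IL6 and BIRC3). Over 18871 promoters of the same length the share was 6.59%. The members were picked as genes of the pathway, so their high share is bound up with that choice and is no test. The search allowed no mismatch, so κB sites that depart from the consensus were not counted. Among these 7, only the promoters of NFKBIA and TNFAIP3 overlapped a control peak, and both overlapped a treated peak as well. In NFKBIA the match lies 81 bp before the start, and in TNFAIP3 there are matches 67 bp and 55 bp before it. Within 300 bp around the peak centres, κB matches were found at 5 member peaks (7.25%), against 4.33% of all control peaks. A match describes the letters of the window and not binding of NF-κB, which was not measured.

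A further 41 genes of the pathway were listed beside the members, and 37 of them were analysed. The loci of TNF, LTA, LTB and IER3 were not analysed here. At the 37 loci 82 of 251 control peaks were lost (32.7%, interval 27.2% to 38.7%), where 39.8% were lost among peaks of the same fold enrichment. Over all control peaks 42.9% were lost. The median gene lost 37.5%, and the median window of all protein-coding genes 33.3%. By group, 4 of 14 peaks were lost at the subunits REL and RELA, 13 of 57 at inhibitors and feedback genes, 21 of 56 at upstream kinases and adaptors, 14 of 37 at cytokine and chemokine targets, 12 of 35 at adhesion, protease and enzyme targets and 21 of 56 at survival and other targets. Peaks in windows of genes from different groups are counted in each, so the groups add up to more than the whole. All 8 peaks of BIRC2 are also peaks of the BIRC3 locus. Of the 25 genes with at least 5 control peaks, CCL20, a chemokine of lymphocytes and dendritic cells, kept all 7, and none lost all. Among all protein-coding windows of that kind 5.80% lost none, so a single such gene is near the common share. A peak within 1 kb of the start was present at 7 genes, and 2 of these 7 peaks were lost. Over all protein-coding genes 28.0% of such peaks were lost. The start peak was kept at NFKBIE (fold enrichment 19.0), CHUK (20.2), IKBKB (18.7), BIRC2 (49.9) and BCL2L1 (38.6). It was lost at TNIP1 (12.8), whose product works with A20, and at CXCL3 (20.6), a neutrophil chemokine. CHUK and IKBKB encode the IKK kinases, NFKBIE a further IκB protein and BCL2L1 an inhibitor of apoptosis.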

How the data were processed

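Reads were aligned by the authors to hg19 using Bowtie2 2.2.3. They filtered out non-unique reads and, with SAMtools 1.5, duplicates, and pooled both replicates of a condition to call peaks with PePr (p-value cutoff 0.05, windows of 100 bp). The submitters' processing notes also name deepTools 2.0. The deposited lists have no header and follow the broadPeak column order. The authors' fold enrichment is a ratio of ChIP over input, and the p-value and FDR of each peak are also theirs. The deposited score column was not used. The 2 lists of differential sites hold the authors' own comparison of the conditions and were not used. The lists give no depth. The study reports similar numbers of uniquely mapped reads for the ChIP libraries of control and treated cells.

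The members, lists and search rules were chosen with earlier results of these data known. Gene records came from GENCODE 44 lifted to hg19, and sequences from the GRCh37 genome. Overlap needed 1 bp. For equal fold enrichment or GC, control peaks elsewhere were weighted to the deciles of the member peaks. They were also weighted to the chromosomes of the member peaks. Named in each locus were the peaks nearest the start, the strongest kept and lost peaks and all arisen peaks; other peaks named were chosen after their values were seen. Of the further pathway genes, those with at least 5 control peaks all kept or all lost, or with a start peak, were named. Routines were tested on simulated data and used Python 3.11.15, numpy 2.4.6, pandas 2.3.3, pysam 0.24.0 and matplotlib 3.10.9. The alternatives tried were other overlap rules, FDR and fold limits, flanks, loci left out and consensus settings.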

Additional observations from a re-analysis of the deposited data

How the results depend on the processing

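The lost share at the member loci stayed below that of all control peaks under all 23 alternatives and within its own counting interval under 21. This sets it against the unweighted share only. Peaks in the windows of all protein-coding genes were lost in 33.5% upstream and 35.4% downstream of the start, also below the 42.9% of all control peaks. The shares weighted for fold enrichment, GC content or chromosome were not computed again. The 23 include leaving out each locus in turn, so they overlap heavily in their peaks. The member share was 52.2% when pairs had to share over 75% of the wider peak (all control peaks 67.7%). It was 18.0% when the control list was shortened to its strongest peaks, to the length of the treated list (all 24.6%). In gene bodies alone it was 40.0% (4 of 10, all control peaks 42.9%). With treated peaks shifted by 10 kb, an alternative chosen after seeing the data, it was 97.1% (all 99.0%). Without NFKB1 it was 25.8%, and without ICAM1 33.3%, the lowest and highest when a single locus was left out. With over 50% shared, the overlap rule of the study's methods, the lost share was 37.7% (all control peaks 50.7%), the arisen share was 14% (all treated peaks 20.8%) and the lost share at the further pathway genes 40.6%. With an FDR of at most 1e-05 in both lists the arisen share was 11.9%, above the 7.15% of all treated peaks. With that limit on the treated list alone it was 2.38%, against 2.30% of all treated peaks within the limit. The median percentile difference of kept peaks was 2.11 points when ranked among the shared peaks alone, instead of -8.45. Over all pairs it was 0.722 instead of -9.26. Ranking among shared peaks centres all pairs by construction, so this move is no test of the list lengths. Without a mismatch the consensus matched 11.6% of the member peaks. Of 20 alternatives for single loci, 7 moved the count of lost peaks by over 1.5 times. The causes were not tested.

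No paired analysis was possible because each list pools the replicates of a condition, and for the same reason neither replicate could be left out. With 3 to 12 control peaks a locus, only large differences between loci could be seen.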
